A study of Mus musculus with 9 samples.

Results

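Simple epithelial keratins are the filament proteins of single-layered and glandular epithelia. Keratin filaments are built from pairs, each of a type I and a type II chain. Krt7 and Krt8 are type II, and Krt18, Krt19, Krt20 and Krt23 are type I. Krt8 and Krt18 are the first pair made in the embryo and the main pair of liver, gut and gland cells. Krt7 and Krt19 are found in ducts and in much of the airway and lung epithelium, and KRT7 staining is used in human pathology to type lung adenocarcinomas. The basal cells of the trachea lie under the luminal cells and are marked by Krt5 and Krt14. These 6 genes were taken by name, with every probe set (a group of short probes against the same transcript) whose annotation names 1 gene and that gene is a member. This gave 8 of the 45037 probe sets other than controls, 3 for Krt8 and 1 for each other gene, and 6 of the 18193 genes measured.

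The lines compared came from mice of a mixed C57/BL6 x sv129 background, and each was measured on 3 Affymetrix MG-430 2.0 arrays. The tumour line is MDA-F471. Its source was an adenocarcinoma in the lung of a female mouse without Gprc5a, which had received NNK, a tobacco carcinogen, by intraperitoneal injection 16 months earlier. The knockout line is a non-tumorigenic epithelial line from the trachea of a Gprc5a-knockout mouse aged 3 weeks, and the wild-type line is its counterpart from a mouse of the same age with intact Gprc5a, a retinoic acid-inducible receptor. Each group is 1 cell line, the tumour and knockout lines both lack Gprc5a, and the tumour line differs from both others in organ, carcinogen and age of the mouse, so none of these can be told apart from the line itself. Nothing in the labels states that the 3 arrays came from separate cultures, so p-values measure only the spread between arrays, which may be technical.

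Facts of the whole series that bear on these genes are few. Array medians lay between 6.28 and 6.34 log2. The targeted gene Gprc5a averaged 7.02 log2 (tumour), 7.16 (knockout) and 8.57 (wild-type), and whether its probe set lies in the deleted part is not known here. The highest signal of the 15 Bacillus control probe sets on any array, 5.96 log2, is used below as the background floor. It was chosen after the data were seen. A gene was called at a Benjamini-Hochberg adjusted p under 0.05 over all genes and at least a 2-fold difference. Where all 3 arrays of the dimmer line lay under it, a fold is given as "at least", computed against the floor. BioB-M, a control added at hybridisation, gave 7.60 to 8.24 log2 for tumour, 8.32 to 9.48 for knockout and 8.42 to 8.57 for wild-type arrays, and the beta-actin 3' minus 5' difference, which rises with RNA degradation, was 0.369 to 0.738 on tumour, 0.90 to 0.953 on knockout and 0.75 to 1.78 on wild-type arrays. Their part in the results was not tested.

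The labels call the knockout and wild-type lines lung epithelial, though both came from tracheas, and the tumour line lung adenocarcinoma. Epcam and Cdh1, surface adhesion proteins of epithelial cells, read 12.03 and 11.92 log2 (tumour), 11.73 and 12.63 (knockout) and 11.74 and 12.88 (wild-type). Vim, the intermediate filament of mesenchymal cells, read 6.99, 6.02 and 6.16 log2 in the same lines. The lung lineage factor Nkx2-1 and the surfactant genes Sftpa1 and Sftpc were under the floor in every line, while the surfactant gene Sftpb read 7.85, 7.99 and 7.68 log2 in the tumour, knockout and wild-type lines.

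The promoters of 4 members whose signal was higher in the tumour line than in both others are shown. Each is the stretch of 250 bases before the annotated start. Krt8 and Krt18 among them are adjacent genes, both higher in the tumour line but by different amounts. Sequences are from RefSeq, build GRCm38.p6, written 5′ to 3′ on the gene's strand. Of the 6 members 5 had an entry, and Krt19 had none. Capitals mark matches, on either strand, to TATAAA (the TATA box), GGGCGG (the GC box bound by Sp and Klf factors), TGANTCA (the AP-1 site), AACCNGTT (the Grainyhead-like site) or AGGTCA (the nuclear receptor half-site). In the Krt20 window TATAAA and AGGTCA directly follow each other and form 1 run of capitals.
Krt7, chr15:101412153-101412402, plus strand: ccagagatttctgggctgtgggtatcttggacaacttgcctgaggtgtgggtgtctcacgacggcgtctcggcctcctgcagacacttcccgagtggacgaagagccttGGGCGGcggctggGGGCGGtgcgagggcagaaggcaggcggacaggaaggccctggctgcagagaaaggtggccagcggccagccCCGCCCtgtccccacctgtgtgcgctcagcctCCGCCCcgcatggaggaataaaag
Krt8, chr15:102004343-102004592, minus strand: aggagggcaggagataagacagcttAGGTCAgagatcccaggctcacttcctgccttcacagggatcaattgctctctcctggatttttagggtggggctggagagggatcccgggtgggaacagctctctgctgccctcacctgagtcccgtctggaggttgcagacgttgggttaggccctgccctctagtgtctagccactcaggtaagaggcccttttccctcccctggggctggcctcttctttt
Krt18, chr15:102027966-102028215, plus strand: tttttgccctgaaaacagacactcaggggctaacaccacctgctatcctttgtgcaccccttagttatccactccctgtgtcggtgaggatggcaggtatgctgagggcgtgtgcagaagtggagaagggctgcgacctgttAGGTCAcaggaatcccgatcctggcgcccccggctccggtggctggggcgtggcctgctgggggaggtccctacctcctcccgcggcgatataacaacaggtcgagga
Krt20, chr11:99438154-99438403, minus strand: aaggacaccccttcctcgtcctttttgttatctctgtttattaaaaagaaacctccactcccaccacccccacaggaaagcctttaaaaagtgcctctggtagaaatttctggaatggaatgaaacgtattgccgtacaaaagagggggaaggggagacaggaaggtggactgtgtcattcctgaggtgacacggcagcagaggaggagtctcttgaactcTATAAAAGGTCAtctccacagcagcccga

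The Krt7 window held 4 GC boxes and no other motif of the 5. The windows of Krt8, Krt18 and Krt20 each held 1 AGGTCA, starting 225, 108 and 23 bases before the gene's start, and the Krt20 window also held TATAAA, starting 29 bases before it. The Krt23 window, not printed, held no match. Among all 32851 windows of the same length, 32.7% held GGGCGG, 14.0% AGGTCA, 12.4% TATAAA, 6.75% TGANTCA and 1.79% AACCNGTT. A match is a description of letters and shows no binding.

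Krt18, the type I partner of Krt8, differed in steps over the 3 lines. It read 14.13, 14.12 and 14.00 log2 on tumour arrays, 10.37, 10.90 and 10.48 on knockout arrays and 8.17, 8.09 and 7.83 on wild-type arrays. No array of any line overlapped with another line. The means were 14.08 ± 0.07, 10.59 ± 0.28 and 8.03 ± 0.18 in the tumour, knockout and wild-type lines (SD, n = 3 each). Krt18 was 11.3-fold higher in tumour than knockout cells (log2 difference 3.50 ± 0.13 SE, limma adjusted p = 1.63e-11), 66.3-fold higher in the tumour than in the wild-type line (6.05 ± 0.13, adjusted p = 2.76e-14) and 5.87-fold higher in the knockout than in the wild-type line (2.55 ± 0.13, adjusted p = 1.98e-09). Between tumour and wild-type lines 0.055% of genes had a larger rise.

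Krt8, the type II partner, followed the same order of lines with smaller differences. Its brightest probe set read 13.92, 13.96 and 14.10 log2 on tumour arrays, 12.67, 12.75 and 12.57 on knockout arrays and 11.57, 11.69 and 11.79 on wild-type arrays. Again no arrays of different lines overlapped. Krt8 was 2.52-fold higher in tumour than knockout cells (1.33 ± 0.10, adjusted p = 2.11e-08) and 4.96-fold higher than in the wild-type line (2.31 ± 0.10, adjusted p = 3.73e-11). Knockout minus wild-type cells gave 0.98 ± 0.10 log2 (adjusted p = 2.11e-06), a 1.97-fold higher signal in the knockout line that missed the 2-fold threshold.

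Krt8 was the only member with several probe sets. The other Krt8 probe sets, both of the _x_at kind, which may also bind related transcripts, averaged 13.57 and 12.69 log2 in the tumour line, 12.12 and 11.46 in the knockout line and 11.12 and 10.53 in the wild-type line. Tested among all 45037 probe sets, they differed by 1.44 and 1.23 log2 between tumour and knockout lines and by 2.45 and 2.16 between tumour and wild-type lines. Between knockout and wild-type lines the first was 2.01-fold higher (adjusted p = 1.64e-05) and was called, while the second was 1.91-fold higher and was not. The 3 probe sets thus lay on either side of the 2-fold threshold there, with differences of 0.93 to 1.00 log2.

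The change of Krt18 exceeded that of Krt8 by 2.17 log2 between tumour and knockout lines, by 3.74 between tumour and wild-type lines and by 1.58 between knockout and wild-type lines. These are differences of 2 differences, given as values with no test. Signals of Krt7, Krt8 and Krt18 in the tumour line lay near the top of the range, where the highest value of any probe set on any array was 14.9 log2. Whether large differences are compressed there was not tested.

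Krt7 was bright in every line and highest in the tumour line. It read 14.15, 14.16 and 13.91 log2 on tumour arrays, 13.05, 13.05 and 12.71 on knockout arrays and 12.42, 12.46 and 12.39 on wild-type arrays. The lines did not overlap. Krt7 was 2.19-fold higher in tumour than knockout cells (1.13 ± 0.11, adjusted p = 5.54e-07) and 3.13-fold higher than in the wild-type line (1.65 ± 0.11, adjusted p = 7.32e-09). The knockout line exceeded the wild-type line by 0.52 ± 0.11 log2 (adjusted p = 0.00244), which was under 2-fold and not called.

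Krt19, a small type I keratin that lacks most of the tail domain, was high in the tumour and wild-type lines and at background in the knockout line. It read 11.97, 12.25 and 11.94 log2 on tumour arrays, 5.41, 5.52 and 5.02 on knockout arrays and 10.21, 10.19 and 10.26 on wild-type arrays. All 3 knockout arrays lay under the floor of 5.96. Krt19 was at least 68.3-fold higher in tumour than knockout cells (signal difference 6.74 ± 0.13, adjusted p = 7.94e-15). It was 3.56-fold higher in the tumour than in the wild-type line (1.83 ± 0.13, adjusted p = 1.02e-08). It was at least 19.2-fold lower in the knockout than in the wild-type line (signal difference -4.90 ± 0.13, adjusted p = 9.52e-13).

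Krt23, a type I keratin whose gene lies beside Krt20, was lowest in the knockout line and highest in the wild-type line. It read 8.87, 8.85 and 8.98 log2 on tumour arrays, 7.00, 6.42 and 6.54 on knockout arrays and 10.26, 10.21 and 9.97 on wild-type arrays. The lines did not overlap, and the knockout arrays lay above the floor. Their mean of 6.65 log2 was at percentile 56.2 of all probe sets in that line, so it lay near the middle of the signals. Krt23 was 4.77-fold higher in tumour than knockout cells (2.25 ± 0.13, adjusted p = 2.52e-09), 2.37-fold lower in the tumour than in the wild-type line (-1.25 ± 0.13, adjusted p = 1.49e-06) and 11.3-fold lower in the knockout than in the wild-type line (-3.50 ± 0.13, adjusted p = 9.33e-11).

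Krt20, typical of intestine, urothelium and Merkel cells, rose above background in the tumour line. It read 8.37, 8.52 and 8.33 log2 on tumour arrays, 5.01, 5.14 and 5.31 on knockout arrays and 5.20, 5.38 and 5.77 on wild-type arrays. Every knockout and wild-type array lay under the floor, and these lines overlapped. Krt20 was at least 5.45-fold higher in the tumour line than in either other line (signal differences 3.25 ± 0.13 against knockout and 2.96 ± 0.13 against wild-type, adjusted p = 3.49e-11 and 8.08e-11). Knockout and wild-type signals differed by -0.30 ± 0.13 (adjusted p = 0.122), and no fold is given because both lines were at background.

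**Figure D1:**
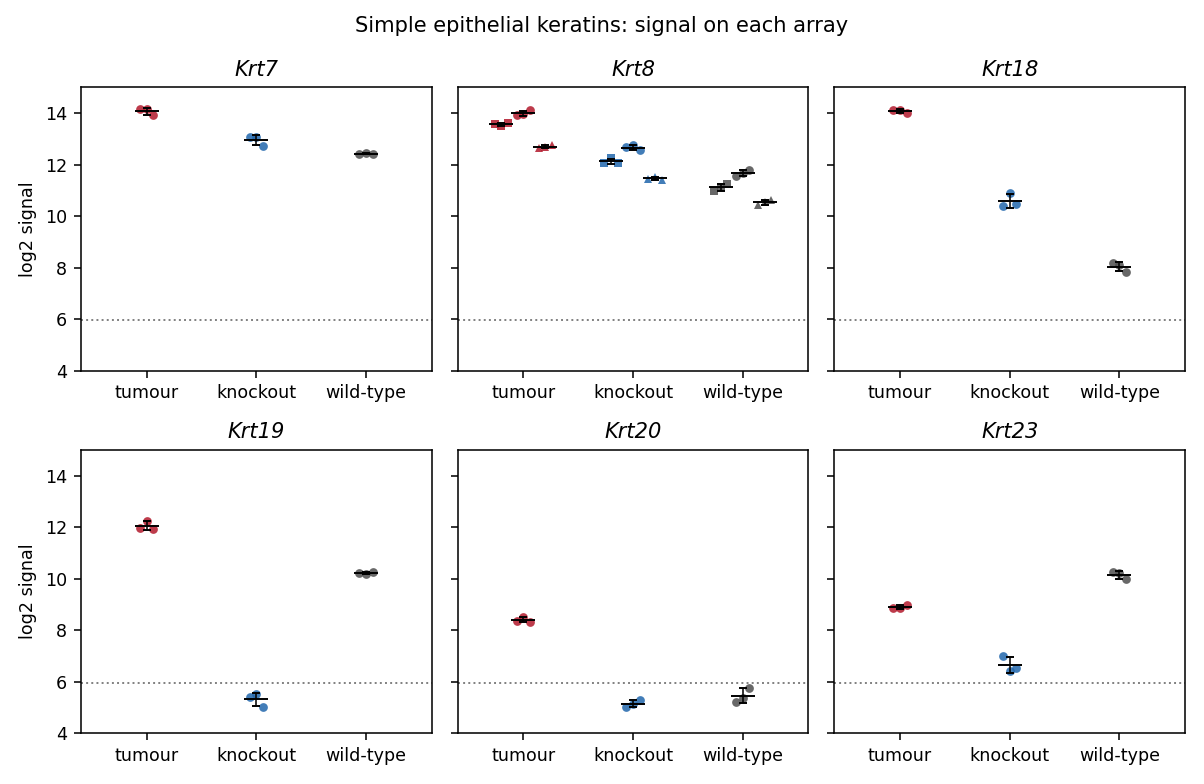
Signal (log2) of the 6 genes on each array of the tumour, knockout and wild-type lines; points are arrays, bars the mean and SD (n = 3), and the dotted line the background floor of 5.96 log2. The 3 Krt8 probe sets have different symbols (circle for the brightest) and run parallel. Krt7, Krt8 and Krt18 step down from tumour to knockout to wild-type, Krt19 and Krt23 are lowest in the knockout line, and Krt20 is above the floor in the tumour line alone.

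Tumour and knockout lines share the loss of Gprc5a and differ in tumorigenicity. All 6 members rose in the tumour line, where 14.2% of all genes were called in either direction, 7.79% higher and 6.38% lower. The members' median difference of log2 signal was 2.75, with a range of 1.13 to 6.74, and the median of all genes was 2.73e-05. With Krt19 and Krt20 at their bounds, the members' median was 2.35 and the highest value 6.09. All 8 probe sets rose as well (11.4% of all probe sets were called, 6.19% higher and 5.18% lower), and the arrays of the 2 lines did not overlap for any of the 8, as for 46.4% of all probe sets.

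Against the wild-type line, 5 members were higher in the tumour line and 1, Krt23, was lower, where 16.6% of all genes were called, 8.09% higher and 8.46% lower. Of the 8 probe sets 7 were higher and 1 was lower (13.1% of all probe sets were called, 6.69% higher and 6.42% lower), and arrays of both lines were apart for all 8, as for 47.6% of all probe sets. The members' median was 2.07, against 0.0101 for all genes. This comparison shares the tumour arrays with the one above.

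The comparison of knockout with wild-type line asks what accompanies loss of Gprc5a in tracheal cells that form no tumours. Here the members split: Krt18 rose, Krt19 and Krt23 fell, and Krt7, Krt8 and Krt20 were not called, where 4.88% of all genes were called, 1.9% higher and 2.98% lower. The median of the 6 was 0.11, against -0.00423 for all genes, and the range of signal differences ran from -4.90 (-4.26 with Krt19 at its bound) to 2.55. Of the 8 probe sets 4 were called (3.71% of all probe sets), 2 higher (1.61%) and 2 lower (2.11%), and arrays did not overlap for 7, as for 31.5% of all probe sets.

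**Figure D2:**
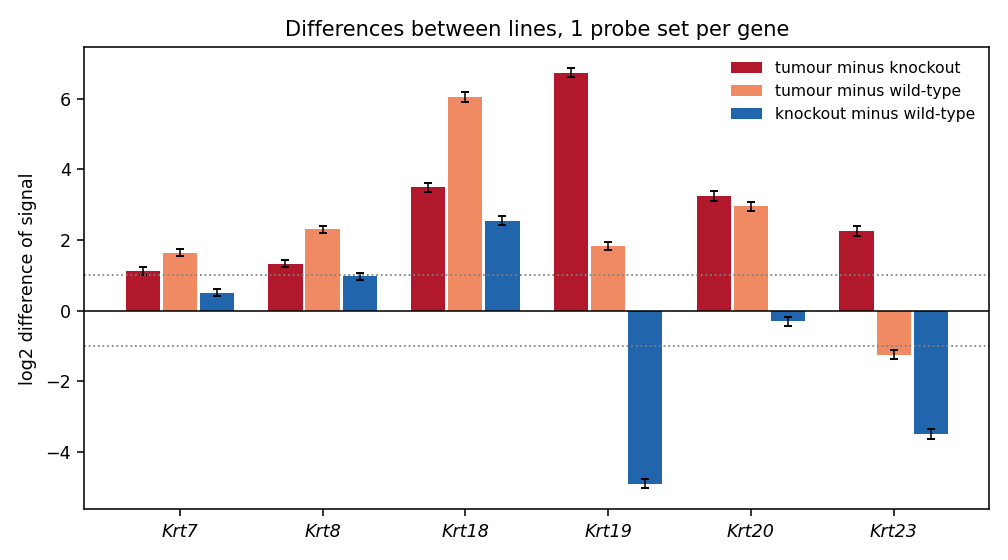
Log2 difference of signal for the 6 genes (1 probe set each) in the 3 comparisons; error bars are limma standard errors and dotted lines mark 2-fold. Bars for tumour minus knockout are above 1 for every gene, while bars for knockout minus wild-type range from -4.90 (Krt19) to 2.55 (Krt18). Bars of Krt19 against the knockout line and of Krt20 in every comparison rest in part on background signals.

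Other keratins were called lower or not at all. RefSeq's gene list for GRCm38.p6 holds 53 keratin genes, of which 48 were measured, 42 of them outside the 6. Between tumour and knockout lines 10 of the 42 fell and limma called 0 higher (1 at an unadjusted p under 0.05). Between tumour and wild-type lines 15 fell and 0 were called higher (2 at unadjusted p), and between knockout and wild-type lines 7 fell and 0 were called higher (2 at unadjusted p). Their medians were -0.14, -0.19 and -0.06 log2 in the same order. The background shares of the comparisons are those given above.

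Among a list of 31 epithelial keratins outside the 6, 28 were measured, and 10 fell between tumour and knockout lines, 14 between tumour and wild-type lines and 7 between knockout and wild-type lines. Krt17, of activated and basal epithelial cells, averaged 3.79 log2 in tumour and 12.90 in knockout cells, a fall of at least 123-fold. Krt14, the basal type I keratin, was 171-fold lower in tumour than knockout cells (-7.42 ± 0.10). Its type II partner Krt5 was 62.1-fold lower (-5.96 ± 0.10), at 8.43 log2 in the tumour line and therefore still above the floor. Krt13, Krt16 and Krt15 were under the floor on all tumour arrays and at least 59.9-fold, 49.96-fold and 79.1-fold lower. Krt6b, at 5.93 log2 in the tumour line and 13.30 in the knockout line, was under the floor on 2 of the 3 tumour arrays. Krt5 and Krt14 differed by -0.07 and 0.16 log2 between knockout and wild-type cells and were not called. The Krt14 probe set is of the _x_at kind, which may also bind related transcripts, as is that of Krt76 below.

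The 7 other keratins that fell in the knockout against the wild-type line were Krt1, Krt76, Krt4, Krt78, Krt80, Krt16 and Krt24. Krt1, of the suprabasal epidermis, differed by -4.18 log2, Krt76, of oral epithelium, by -2.97 and Krt4, of the oesophagus, by -2.19. Krt78 differed by -2.09, Krt80 by -1.51, Krt16 by -1.50 and Krt24 by -1.26, with Krt24 under the floor in the knockout line.

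Keratin genes lie in a cluster on chromosome 15 and in a cluster on chromosome 11. The first holds the type II genes with Krt18 at its end, the second the other type I genes. Each holds 3 of the 6 members and 21 of the other measured keratins. On chromosome 15, Krt8 and Krt18 are direct neighbours and both rose in the tumour line. Krt78, on the other side of Krt8, differed by -0.15 between tumour and knockout lines and was not called, and Eif4b, the first gene beyond Krt18, differed by 0.33 and was not called. Krt80, next to Krt7, differed by 0.66 (not called) where Krt7 rose by 1.13. On chromosome 11, Krt20 and Krt23 are direct neighbours; both rose in the tumour against the knockout line, but against the wild-type line Krt20 rose and Krt23 fell. Krt19 lies beside Krt15, which was at least 79.1-fold lower in tumour than knockout cells, while Krt19 was at least 68.3-fold higher. Each bound stands against the floor, since Krt15 was under it on the tumour arrays and Krt19 on the knockout arrays.

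**Figure D3:**
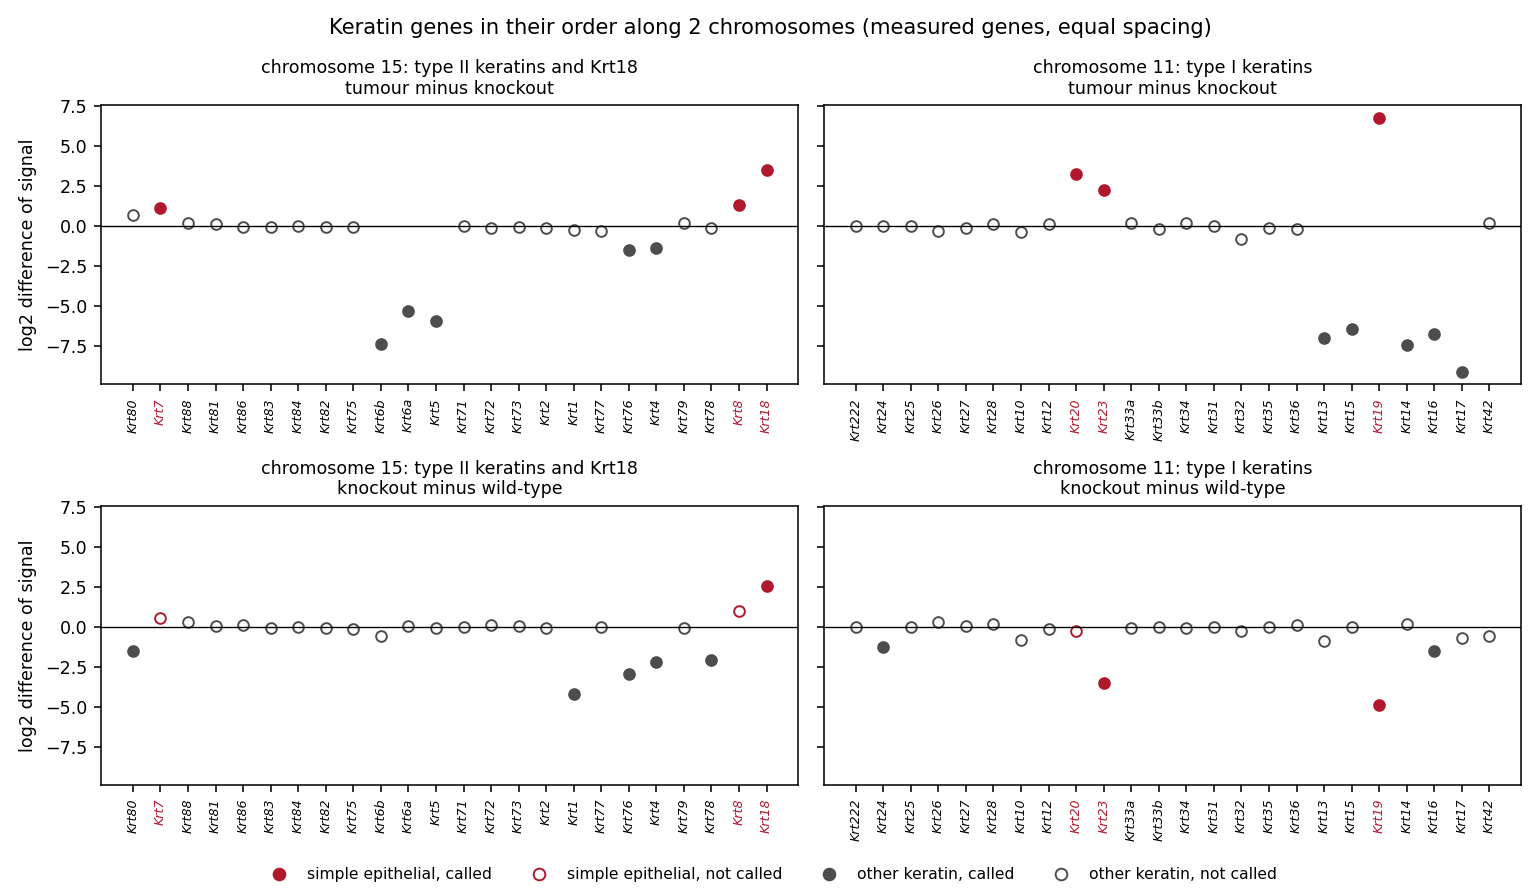
Log2 difference of signal for the measured keratin genes in their order along chromosome 15 (left) and chromosome 11 (right), for tumour minus knockout (top) and knockout minus wild-type (bottom). Red points are the 6 simple epithelial keratins, grey points the 42 others, and filled points were called. Every filled point above 0 is red, and in the upper right panel Krt19 (6.74) stands beside Krt15 (-6.45), both differences of signal that rest in part on background.

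Keratin filaments are tied to desmosomes and to each other by linker proteins. For this and the following lists, the shares of all genes called are those given above for each comparison. Of 22 such linkers, chaperones and other reported binding partners, 2 rose and 7 fell in the tumour against the knockout line (median -0.41), and between knockout and wild-type lines 0 rose by limma (3 at unadjusted p under 0.05) and 1 fell. Pkp2, the plakophilin of simple epithelia and heart, was 1.64 ± 0.10 log2 higher in tumour than knockout cells, and Pnn, which is found at desmosomes and in nuclear speckles, 1.33 ± 0.11. Pkp1, the plakophilin of stratified epithelia, differed by -3.43 log2, the linker desmoplakin (Dsp) by -2.66, epiplakin (Eppk1) by -2.07 and envoplakin (Evpl) by -1.82. The small heat shock protein Hspb1 differed by -6.14 log2. Plectin (Plec), which links filaments to other cytoskeletal systems, was not called (-0.04).

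Other genes of simple and glandular epithelia moved both ways. Of 24 measured, 5 rose and 3 fell in the tumour against the knockout line (median 0.25), 6 rose and 3 fell against the wild-type line (0.41) and 2 rose and 0 fell in the knockout against the wild-type line (0.04; limma, with 6 lower at unadjusted p under 0.05). The surface mucin Muc1 was 5.47 ± 0.11 log2 higher in tumour than knockout cells. The claudins Cldn7 and Cldn3, of tight junctions, were higher by 4.58 ± 0.11 and 4.02 ± 0.14, and Tjp3, a tight junction scaffold, was at least 4.51-fold higher. Of the 3 that fell, Prom1 was under the floor on all tumour arrays and at least 2.15-fold lower, and the splicing factor Esrp2 and the transcription factor Ehf differed by -1.26 and -1.03 log2. Averaging the probe sets of Ehf ended its call (-0.66), as did leaving out knockout replicate 3 (-0.99). Cldn7 was also higher in the knockout than in the wild-type line, by at least 3.69-fold.

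Of 26 transcription factors of epithelial identity, 11 fell and 3 rose in the tumour against the knockout line (median -0.78). Gata6, of lung and gut endoderm, rose by 2.35 ± 0.13 log2, and the pioneer factors Foxa1 and Foxa2 rose by 2.62 ± 0.09 and 1.12 ± 0.14. The Foxa2 call was lost without knockout replicate 3 (0.98). Of the 11 that fell, Sox2 was at least 36.9-fold and Trp63, the regulator of basal cells, at least 26.5-fold lower. Cebpa and Grhl3 differed by -3.40 and -2.72 log2, and Tfap2c was at least 3.03-fold lower. Foxa1 averaged 11.39 log2 (tumour), 8.77 (knockout) and 10.72 (wild-type), a difference of -1.95 between knockout and wild-type cells. Against the wild-type line 2 rose and 12 fell, and between knockout and wild-type lines 1 rose and 7 fell.

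**Figure D4:**
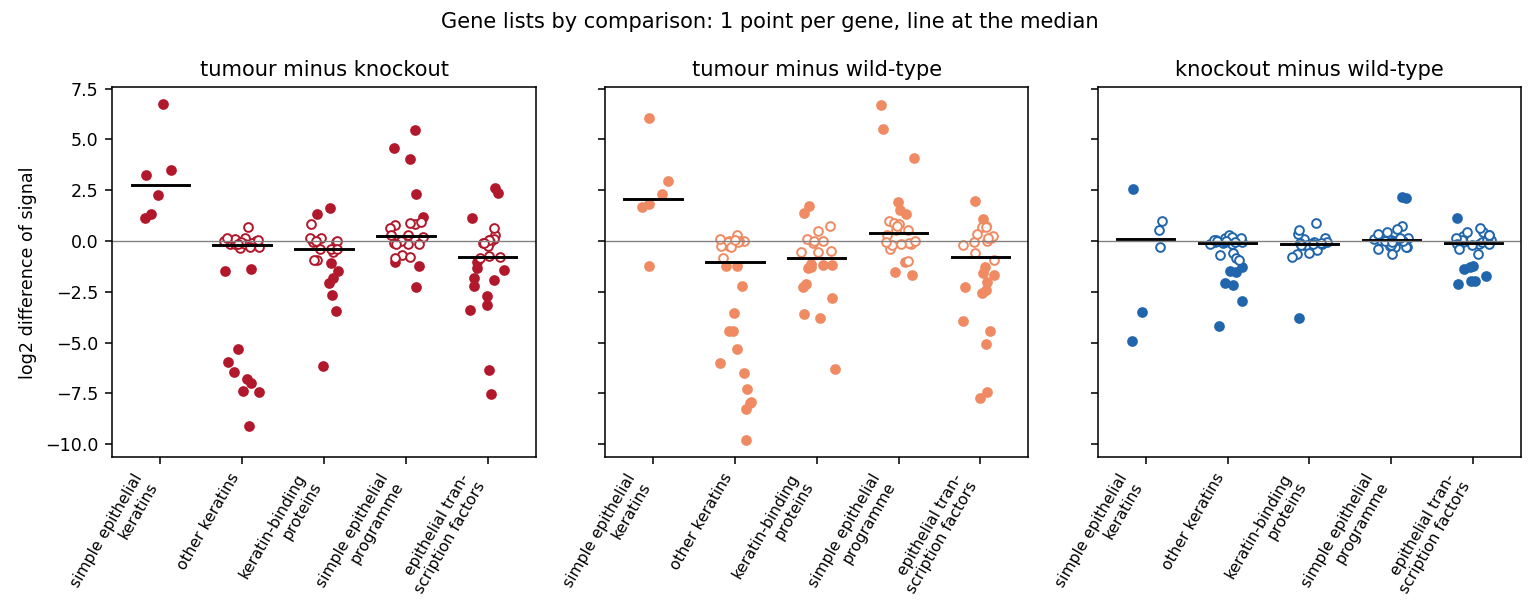
Log2 difference of signal for each gene of 5 lists in the 3 comparisons; lines are medians and filled points were called. In the left panel all 6 simple epithelial keratins lie above 0 with a median of 2.75, the other keratins have a median of -0.19 and the simple epithelial programme 0.25.

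Of 17 other intermediate filament genes measured, 1 rose in the tumour line against each other line, Lmnb1 of the nuclear lamina (by 1.05 ± 0.09 against knockout and 1.16 against wild-type), and none was called lower by limma (2 against knockout and 3 against wild-type at unadjusted p under 0.05). Among all genes 7.79% were called higher against knockout and 8.09% against wild-type. The Lmnb1 call against knockout was lost with quantile normalization (0.99) and without knockout replicate 2 (1.00). In the knockout against the wild-type line limma called 0 (1 higher and 2 lower at unadjusted p).

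Since these are bulk samples, fewer cells of a type and less RNA per cell cannot be told apart. Airway basal markers had 2 higher and 10 lower of 17 measured in the tumour against the knockout line and 0 higher (2 at unadjusted p under 0.05 by limma) and 13 lower against the wild-type line, and their mean log2 signal was 6.81 to 6.87 on tumour arrays, 10.78 to 10.83 on knockout arrays and 11.41 to 11.56 on wild-type arrays. In the knockout against the wild-type line 5 fell and limma called 0 higher (2 at unadjusted p). The 2 higher in the tumour against the knockout line were Icam1 (1.63 log2) and Bcam (1.14). Krt5, Krt14, Krt15, Krt17, Trp63 and Sox2 of this list were also counted among the keratins or transcription factors above. This list fell where the simple keratins rose in the tumour line, and its part in their rise was not tested.

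Other cell types of lung and airway were followed by their markers. Between tumour and knockout lines, 7.79% of all genes were called higher and 6.38% lower. Airway secretory markers had 6 of 20 lower in the tumour against the knockout line and limma called 0 higher (1 at unadjusted p under 0.05). Cyp2f2, a cytochrome of club cells, averaged 5.77 log2 (tumour), 11.32 (knockout) and 11.07 (wild-type), and Cbr2, a carbonyl reductase, was at least 107-fold lower in tumour than knockout cells. The secretoglobins Scgb1a1 and Scgb3a2 were under the floor in every line, and Scgb3a1 read 6.60, 6.45 and 6.304 log2. The other 14 were not called, and the list's median was -0.17 log2. Against the wild-type line 1 rose and 4 fell (median -0.016). Krt4 and Krt13 of this list were also counted among the other keratins above. The part of this list in the rise of the simple keratins was not tested.

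Alveolar and lung lineage markers had 5 of 16 higher, Lpcat1, Aqp5, Sftpd, Rtkn2 and Foxa2, and 1 lower, Hopx, in the tumour against the knockout line. Rtkn2 was under the floor on every array of all 3 lines, so its call rests on background signal, and 4 were called higher with the dimmest 40% of probe sets left out. Mesothelial markers had 0 of 12 higher (3 at unadjusted p by limma) and 1 lower, Bnc1. Of the first 4, Wt1 was under the floor in every line, Upk1b read 7.04, 6.86 and 7.18 log2, Upk3b 6.35, 6.33 and 6.39, and Msln 11.71, 12.25 and 10.11. Msln was 2.14 ± 0.11 higher in the knockout than in the wild-type line.

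Fibroblast and smooth muscle markers had 1 of 17 higher in the tumour against the knockout line, Fn1, at 12.52, 11.09 and 11.25 log2, and 1 lower, Acta2. The Acta2 difference of -1.61 became 0.03 once _x_at and _s_at probe sets were left out. Of the collagens Col3a1 was under the floor in all lines, whereas Col1a1 read 6.35, 6.06 and 6.10 log2, Col1a2 6.64, 6.76 and 6.58 and Col5a1 7.08, 6.72 and 7.33. Leukocyte and endothelial markers had 0 of 13 called by limma (1 each way at unadjusted p). Ptprc was under the floor in all lines, while Cd68 read 6.92, 7.71 and 8.03 log2, Adgre1 6.51, 6.68 and 6.96 and Csf1r 8.03, 7.68 and 7.52. Ciliated markers had 1 of 12 higher, Tubb4b, and neuroendocrine markers 1 lower of 6, Ncam1. Neither was called with the mean of the gene's probe sets.

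The genes with the most similar pattern were found by the root mean square difference of mean-centred log2 signals over the 9 arrays. Of the 18193 genes, the 6 members and genes with only a predicted, Rik or clone name were left out. The result is a description of 3 lines. Nearest to Krt18, whose values span 6.3 log2, were Cldn7 (0.47), Ddah1 (0.564) and Tm4sf1 (0.691). Cldn7 averaged 12.42, 7.84 and 5.72 log2 in the tumour, knockout and wild-type lines. It was under the floor on all wild-type arrays, so its likeness to Krt18 rests in part on background. Nearest to Krt19, which spans 7.23 log2, were Igfbp7 (0.462), Ppbp (0.654) and Padi4 (0.798). Krt19 was under the floor in the knockout line, where Padi4 averaged 5.55 log2, so their likeness rests in part on background. Igfbp7, a secreted growth factor-binding protein, averaged 12.20, 6.15 and 10.96 log2 in the same lines, also lowest in the knockout line.

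Nearest to Krt8 were Slc12a2 (0.107), Fam102b (0.119) and Fam241b (0.119), and nearest to Krt7 were Spns2 (0.11), Sclt1 (0.112) and Epb41l2 (0.113). Slc12a2, a sodium, potassium and chloride cotransporter, averaged 12.35, 10.89 and 10.14 log2 in the tumour, knockout and wild-type lines. Nearest to Krt20 were Mx1 (0.162), Aqp8 (0.163) and Fbp2 (0.184). Krt20 was under the floor in the knockout and wild-type lines, where Mx1 averaged 4.03 and 4.20 log2, so their likeness rests in part on background. Nearest to Krt23 were Mboat2 (0.477), Dram1 (0.525) and Gstm1 (0.568). Mboat2 and Dram1 averaged 5.75 and 5.74 log2 in the knockout line, under the floor, so their likeness rests in part on background. Among the 6 members themselves the closest pair was Krt7 with Krt8 (0.31) and the most distant Krt18 with Krt23 (3.2).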

How the data were processed

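Expression was measured on 9 arrays, 3 per line. The deposited values are log2 signals per probe set, with the authors' background correction, summarization and normalization not given in the sources used here. Biotin-labelled cRNA was hybridised, per the labels' protocols. Arrays give no counts, so their number limits the precision.

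Probe sets were named through the platform annotation with symbols updated by Entrez ID: 34945 carried 1 symbol, 932 several and 9160 none, and 64 were controls. Each gene was represented by its probe set with the highest mean, and limma 3.58.1 (lmFit, eBayes) in R 4.3.3 was fitted to all 9 arrays with 6 residual degrees of freedom. A second fit tested all 45037 probe sets. All p-values are two-sided. The fits were tested on simulated data.

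The members and gene lists were chosen with earlier results of these data known. Named genes were the 6 members and up to 6 called genes of each list with the largest change. The first 4 measured markers of each cell type, other than ciliated and neuroendocrine cells, and the 3 nearest genes by pattern were named too. Pnn, Plec, Ehf, Gata6, Foxa2 (as a transcription factor), Krt24, Eif4b, Icam1, Bcam, Epcam, Cdh1 and Vim were chosen after their values were seen.

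Alternatives were another normalization, filter, probe set rule, threshold, variance model and set of arrays, and the replicate number as a block.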

Additional observations from a re-analysis of the deposited data

How the results depend on the processing

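All 6 genes were called in both comparisons with the tumour line under each of the 19 alternatives, leaving out any 1 array included, and all 8 probe sets under each of the 17 that apply to them, with the same direction throughout. Between knockout and wild-type lines 3 genes and 4 probe sets were called. Without a fold threshold these counts were 5 and 7, since Krt7 and Krt8 pass on adjusted p alone. At that setting 4805 of all 18193 genes and 7684 of all 45037 probe sets were called. Leaving out 1 array gave 3 to 4 genes and 3 to 5 probe sets. Krt8 decides this: its difference lay between 0.92 and 1.03 log2 over the alternatives and passed 2-fold with quantile normalization (1.01), without wild-type replicate 3 (1.03) and without knockout replicate 3 (1.02). The Krt8 probe set at 1.00 log2 dropped under 2-fold with arrays centred on their medians (0.99), without wild-type replicate 1 (0.94) and without knockout replicate 2 (0.94). No difference of a member changed sign.

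With the replicate block the counts were 6, 6 and 3 genes and 8, 8 and 4 probe sets for tumour against knockout, tumour against wild-type and knockout against wild-type lines. Deviations of same-numbered arrays correlated between -0.145 and 0.278, so the numbers were not taken as pairs. The count of 0 other keratins called higher became 1, 2 and 1 of 42 without a fold threshold. In the same order of comparisons, 8103, 8614 and 4805 of all 18193 genes were then called in either direction. With the dimmest 40% of probe sets left out, 29 of the 42 remained and 0 were called higher. Signals under the floor limit Krt19 in the knockout line and Krt20 in the knockout and wild-type lines.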
